A study of Homo sapiens with 6 samples.

Results

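The IRF2BP family is made of 3 paralogous genes, IRF2BP1, IRF2BP2 and IRF2BPL, which are 3 of the 61806 genes in the deposited table. They were taken by their gene symbols. The family was chosen by a measured value, the lower level of IRF2BPL in the libraries labelled GRIK1 siRNA, so that difference is given as a description, without a test. All 3 genes passed the filter on low values, set at 0.5 FPKM (fragments per kilobase of exon and per unit of library size) on average over all 6 libraries, along with 15867 others.

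The libraries are total RNA of U87-MG, an established human glioblastoma cell line. There were 3 libraries of the negative control (NC), whose genotype is labelled wildtype, and 3 labelled GRIK1 siRNA, whose genotype is labelled GRIK1 knockdown. GRIK1 encodes a kainate-type glutamate receptor subunit, and the study asked which genes change when it is reduced in glioblastoma cells. The deposited description speaks of an shRNA where the library names speak of siRNA. The study's methods describe 3 siRNA sequences, named siRNA1 to siRNA3, of which siRNA1 was carried forward. The library names also run from siRNA1 to siRNA3, so whether the libraries are replicates of siRNA1 or hold 1 sequence each cannot be told apart. Separate cultures are not named either, so p-values measure only the spread between these libraries.

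The total counts were 11099909 to 14006968 per library. GRIK1 itself was at 18, 9 and 8 counts in NC and at 15, 20 and 20 in the group labelled GRIK1 siRNA, so its label was not borne out by a lower count. These levels, 0.13 to 0.38 FPKM, lie below the filter and are too low to settle whether GRIK1 was reduced. The paper reports efficient knockdown of GRIK1 in U87-MG cells. Each difference given is thus between libraries carrying these labels. NC library 3 stood apart from the others. Its correlation with the other 5 libraries across genes was 0.952 to 0.968, against 0.980 to 0.992 among those 5, and ribosomal protein genes took 9.37% of its counts against 4.79% to 5.50%. Of the 7 markers fixed for the line, 3 passed the filter. VIM and CD44 were abundant, with NC means of 981 and 63.8 FPKM. OLIG2 was low, with means of 0.553 FPKM in NC and 0.617 in GRIK1 siRNA. NES had 16 to 51 counts per library, and GFAP, SOX2 and S100B were at or below 39 counts in each library. CDKN2A and CDKN2B, fixed as genes deleted in U87-MG, had at most 2 counts in a library. Of 9 markers of neurons, leukocytes and endothelium, 3 passed the filter (SNAP25, SYT1 and CD68, with means of at most 3.74 FPKM) and 0 had an adjusted p under 0.05 in edgeR, against 2 at an unadjusted p under 0.05.

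The IRF2BP proteins are nuclear co-repressors that act together with DNA-bound transcription factors. IRF2BP1 and IRF2BP2 were named for binding to the repression domain of the interferon regulatory factor IRF2, and the family joins an amino-terminal zinc finger to a carboxy-terminal RING domain. IRF2BP2 has been linked to NFAT, p53 and VGLL4, and IRF2BP1 to ubiquitination of JDP2. IRF2BPL, also called EAP1, is active in the brain, where it is known for its role in the control of GnRH neurons and for a neurodevelopmental disorder caused by its truncation.

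The genes lie on different chromosomes, all on the minus strand in GRCh38. IRF2BPL (ENSG00000119669) lies on chromosome 14 from 77024543 to 77028708, IRF2BP2 (ENSG00000168264) on chromosome 1 from 234604269 to 234610178, and IRF2BP1 (ENSG00000170604) on chromosome 19 from 45883608 to 45886141. In GENCODE 29, IRF2BPL and IRF2BP1 each have 1 exon and IRF2BP2 has 2. The coding sequence of IRF2BPL is the longest, at 796 codons, and holds a run of 25 consecutive glutamine codons. IRF2BP2 has 587 codons with a longest glutamine run of 5, and IRF2BP1 has 584 codons with a run of 3. The 3' UTR of IRF2BP2 spans 2868 bases, that of IRF2BPL 859 and that of IRF2BP1 413.

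The part of the coding sequence around the longest exact run shared by IRF2BP2 and IRF2BPL is shown. It bears on whether reads of these genes can be told apart. It lies in exon 1 and, in frame, encodes a stretch of the amino-terminal zinc finger. Each line gives 60 coding bases, 5' to 3' on the minus strand of GRCh38, from GENCODE 29 transcripts. The IRF2BP1 stretch is chr19:45885685-45885744, the IRF2BP2 stretch chr1:234609393-234609452 and the IRF2BPL stretch chr14:77027697-77027756. Capitals mark the 47 bases that are the same in all 3 genes.
IRF2BP1: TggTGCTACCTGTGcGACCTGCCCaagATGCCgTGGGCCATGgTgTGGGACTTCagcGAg
IRF2BP2: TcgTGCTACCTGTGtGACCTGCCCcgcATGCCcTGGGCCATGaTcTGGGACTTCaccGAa
IRF2BPL: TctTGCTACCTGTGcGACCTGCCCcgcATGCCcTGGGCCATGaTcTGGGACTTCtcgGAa
Here IRF2BP2 and IRF2BPL matched at 56 of 60 bases, IRF2BP1 and IRF2BP2 at 50, and IRF2BP1 and IRF2BPL at 48. The longest run shared without a mismatch was 39 bases between the IRF2BP2 and IRF2BPL transcripts, 21 between IRF2BP1 and IRF2BPL, and 17 between IRF2BP1 and IRF2BP2. No stretch of 50 bases was shared by any pair. The read length is not given in the sources used here.

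The sequences before the start sites are shown next, because the level of IRF2BPL separated the groups and those of its paralogs did not. Each line gives the 130 bases before the start in the deposited table, 5' to 3' on the minus strand, from RefSeq for GRCh38.p14. They are chr14:77028709-77028838 for IRF2BPL, chr1:234610179-234610308 for IRF2BP2 and chr19:45886142-45886271 for IRF2BP1. Capitals mark matches, on either strand, to the motifs named after them.
IRF2BPL: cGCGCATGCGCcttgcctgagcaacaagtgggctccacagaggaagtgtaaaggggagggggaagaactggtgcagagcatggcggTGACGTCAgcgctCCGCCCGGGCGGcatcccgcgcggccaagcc
IRF2BP2: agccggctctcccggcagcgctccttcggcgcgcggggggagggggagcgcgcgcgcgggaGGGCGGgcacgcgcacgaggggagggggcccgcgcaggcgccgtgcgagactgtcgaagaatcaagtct
IRF2BP1: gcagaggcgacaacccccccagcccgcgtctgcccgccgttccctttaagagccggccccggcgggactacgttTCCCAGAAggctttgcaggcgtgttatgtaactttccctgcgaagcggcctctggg
The motifs were chosen after the sequences were seen and were searched on both strands of the 250 bases before the start. The IRF2BPL window held the full cyclic AMP response element TGACGTCA at positions -44 to -37, which 1.65% of 35116 promoters hold, and the NRF1 core GCATGCGC, on both strands between -129 and -120, which 2.63% hold. The half-site TGACG, found in 21.2% of promoters, occurred in IRF2BPL only inside the full element. The GC box GGGCGG, found in 42.6% of promoters, occurred in IRF2BPL and IRF2BP2 but not in the window of IRF2BP1. The IRF2BP1 window held TCCCAGAA at -56 to -49, which 2.29% of promoters hold. No window held CCAAT (32%), TATAAA (10.7%) or CCGGAAG (8.52%). The GC content of the 250 bases was 68.8% for IRF2BPL, 74.4% for IRF2BP2 and 60.8% for IRF2BP1, against a median of 58.0% over all promoters, and they held 21, 40 and 21 CpG dinucleotides against a median of 11. Another annotated IRF2BP2 start had 84.8% GC. A match is a description of the letters and does not show that a factor binds there.

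In the NC libraries, IRF2BPL and IRF2BP2 were present at about the same level, and in the libraries labelled GRIK1 siRNA IRF2BPL was at the level of IRF2BP1. The levels of IRF2BPL were 20.33, 19.55 and 18.53 FPKM in NC libraries 1, 2 and 3. In libraries 1, 2 and 3 of the GRIK1 siRNA group they were 9.30, 8.46 and 8.10 FPKM. The groups did not overlap, and the highest GRIK1 siRNA library lay below the lowest NC library by more than the range of either group. As counts, IRF2BPL was at 940, 906 and 1081 in NC and at 480, 445 and 446 in the other group. In bulk RNA, fewer cells that express a gene and less RNA per cell cannot be told apart.

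After scaling by TMM (trimmed mean of M-values), IRF2BPL went from 84.0 ± 2.81 to 35.0 ± 2.41 CPM, the count scaled to a common library size (SD, n = 3 each). This is 0.417 of its NC level, or -1.26 as a log2 fold change, with a standard error (SE) of 0.11. Between the NC libraries its level varied with a coefficient of variation of 3.35%, close to the 3.20% that counting error alone gives at these counts. In the GRIK1 siRNA group it was 6.87%, against 4.68% from counting. Unlike that of its paralogs, its scaled level in NC library 3 (86.95 CPM) was close to that in the other NC libraries (83.74 and 81.35 CPM). Without NC library 3, the log2 fold change was -1.24, so the difference did not rest on that library.

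Of the 15870 genes tested, 169 had a more negative log2 fold change than IRF2BPL. Few of them were as abundant. Among the 2631 genes with an NC mean of at least that of IRF2BPL, 5 had a more negative value, which were the collagenase gene MMP1, the neuropeptide gene NMB, the chemokine gene CXCL8, the chromatin gene HMGA1 and the prostaglandin synthase gene PTGES. They were looked up after their values were seen. A gene annotated on the opposite strand, ENSG00000273729, shares 623 bases with the 5' end of IRF2BPL, and strand use in counting is not given in the sources used here. That gene was at 10 to 39 counts per library, with a log2 fold change of -0.45.

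**Figure D1:**
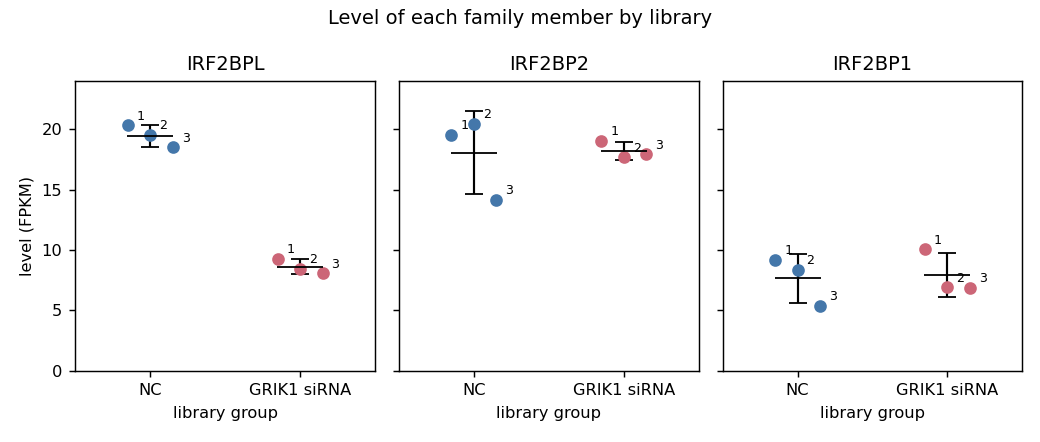
Level in FPKM (vertical axis) of IRF2BPL, IRF2BP2 and IRF2BP1 in the 3 NC and 3 GRIK1 siRNA libraries. Each point is a library with its number, and bars show the mean ± SD. IRF2BPL lies between 18.53 and 20.33 in NC and between 8.10 and 9.30 in GRIK1 siRNA, while the groups overlap for IRF2BP2 and IRF2BP1.

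IRF2BP2, a co-repressor with links to immune cell differentiation and muscle, was the paralog with the steadiest level in the GRIK1 siRNA group. It had 19.57, 20.47 and 14.17 FPKM in NC. Under the GRIK1 siRNA label it had 19.04, 17.67 and 17.95 FPKM, which lie inside the NC range. The low NC value is that of library 3.

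On the TMM scale IRF2BP2 had 99.9 ± 12.6 CPM in NC and 95.5 ± 3.65 CPM in GRIK1 siRNA (SD, n = 3 each). The log2 fold change was -0.06 (SE 0.13, 95% interval -0.37 to 0.24, edgeR adjusted p = 0.777). A difference was thus not detectable, and the interval still allows log2 differences down to -0.37 or up to 0.24. The result turned on NC library 3. Without it the log2 fold change was -0.16 (edgeR adjusted p = 0.035), where the range over 14 alternatives was 0.035 to 0.974. In that fit 35.2% of all tested genes had an adjusted p under 0.05, and 18.3% did so with a lower level. A small gene on the opposite strand, ENSG00000228830, shares 2476 bases with IRF2BP2 and had 0 counts in all libraries, which allows up to 3 counts in each.

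IRF2BP1, the shortest of the paralogs, was also the lowest in 5 of 6 libraries and varied most between libraries of a group. Its levels were 9.21, 8.37 and 5.38 FPKM in NC against 10.07, 6.91 and 6.87 FPKM under the GRIK1 siRNA label. The first GRIK1 siRNA library was the highest of all 6 and NC library 3 the lowest, and the groups overlapped. The mean was 19.9 ± 4.02 CPM in NC and 19.6 ± 4.49 CPM in GRIK1 siRNA (SD, n = 3 each).

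The log2 fold change of IRF2BP1 was -0.02 (SE 0.22, 95% interval -0.52 to 0.49, edgeR adjusted p = 0.969). Its coefficient of variation was 20.2% in NC and 22.9% in GRIK1 siRNA, against 6.61% and 6.25% from counting, so its spread exceeded counting error. Its sign changed between alternatives, from -0.22 without GRIK1 siRNA library 1 to 0.11 without NC library 1. Neither IRF2BP1 nor IRF2BP2 passed an adjusted p of 0.05, which 3.09% of all tested genes did (1.61% higher and 1.48% lower). With a log2 fold change beyond 1 as well, 1.41% of genes passed, and 0.542% did so with a value under -1. Of the 3 paralogs, IRF2BPL alone had groups that did not overlap and was lower in GRIK1 siRNA, which held for 19% of tested genes. Nothing is read from that count, since this difference chose the family.

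**Figure D2:**
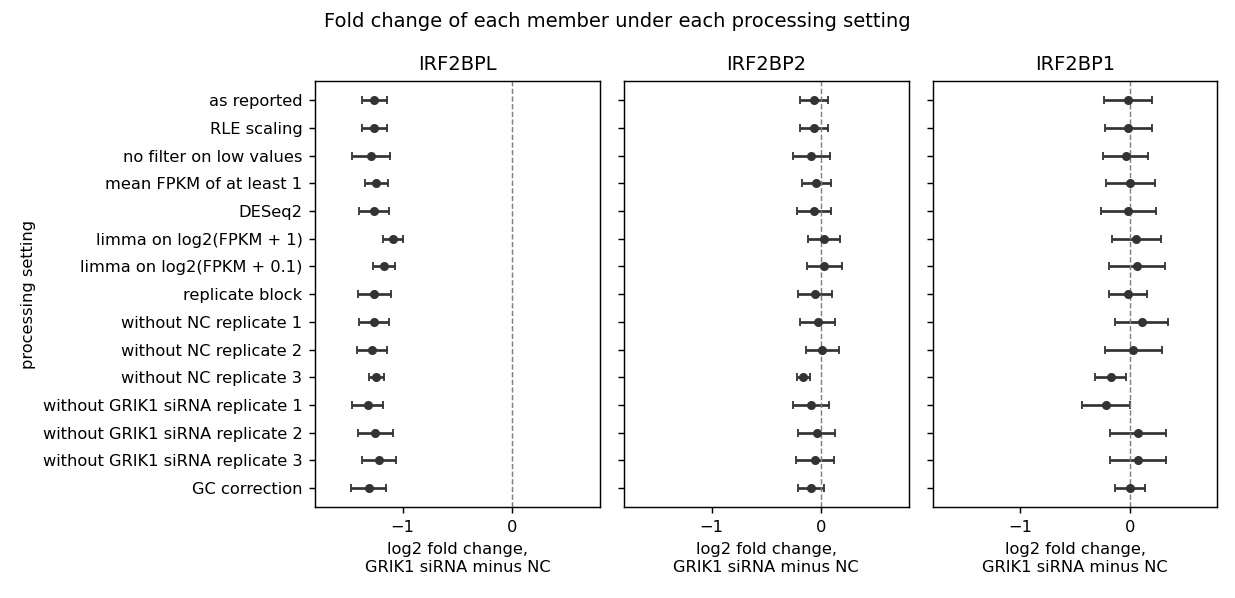
Log2 fold change of GRIK1 siRNA against NC (horizontal axis, bars are the standard error) of each paralog under each processing setting (vertical axis). IRF2BPL stays between -1.32 and -1.09, IRF2BP2 between -0.16 and 0.030, and IRF2BP1 between -0.22 and 0.11.

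The ratio of paralogs within a library does not depend on how libraries are scaled. The count ratio of IRF2BP1 to IRF2BP2 was 0.222, 0.193 and 0.179 in NC. Under the GRIK1 siRNA label it was 0.249, 0.184 and 0.180, which overlap these. The mean log2 ratio differed by 0.038 (p = 0.8 in an exact permutation test, two-sided). With 3 against 3, that test has a smallest p of 0.1.

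IRF2BPL was lower relative to both paralogs under the GRIK1 siRNA label. Per length, its FPKM was 1.04, 0.955 and 1.31 times that of IRF2BP2 in NC. Under the GRIK1 siRNA label it was 0.488, 0.479 and 0.451 times. Against IRF2BP1, its FPKM was 2.21, 2.34 and 3.44 times as high in NC and 0.924, 1.22 and 1.18 times in GRIK1 siRNA. Neither ratio overlapped between the groups. No test is given, since both ratios contain the gene that chose the family.

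These shifts changed the order of levels. In NC libraries 1 and 3 IRF2BPL was the highest and in NC library 2 IRF2BP2 was, and these neighbours in the order did not differ beyond their spread (19.5 ± 0.903 against 18.1 ± 3.41 FPKM). IRF2BP1 was the lowest in each NC library. In each GRIK1 siRNA library, IRF2BP2 was the highest. IRF2BPL and IRF2BP1 followed it with 8.62 ± 0.616 and 7.95 ± 1.84 FPKM, which also did not differ beyond their spread. IRF2BPL made up 43.5% ± 4.53 of the summed FPKM of the family in NC and 24.8% ± 0.721 in GRIK1 siRNA (SD, n = 3 each). The share of IRF2BP2 was 39.8% ± 2.55 and 52.5% ± 2.59, and that of IRF2BP1 16.7% ± 2.40 and 22.7% ± 3.06. The summed FPKM of the family was 49.11, 48.39 and 38.08 in NC and 38.41, 33.04 and 32.92 in GRIK1 siRNA (45.2 ± 6.17 against 34.8 ± 3.14, SD, n = 3 each). On this scale the sums overlapped only between NC library 3 (38.08) and GRIK1 siRNA library 1 (38.41). Divided by the TMM factors, the sums were 48.3, 48.1 and 42.7 in NC and 37.2, 32.0 and 32.0 in GRIK1 siRNA and did not overlap. No test is given, since the sums contain IRF2BPL.

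**Figure D3:**
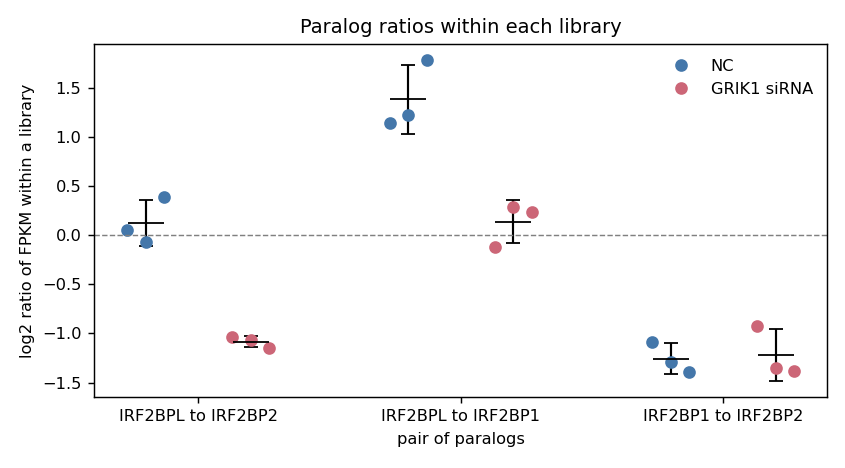
Log2 ratio of FPKM between pairs of paralogs within each library (vertical axis). Points are libraries and bars the mean ± SD, with NC in blue and GRIK1 siRNA in red. Both ratios with IRF2BPL separate the groups, and the IRF2BP1 to IRF2BP2 ratio, with FPKM ratios from 0.38 to 0.529, does not.

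The genes around each paralog were examined to see whether a wider region moved with it. For each paralog the 3 nearest tested genes on each side were taken, 18 in all. Of these, 0 had an adjusted p under 0.05 in edgeR, where 3.09% of all tested genes did. An unadjusted p under 0.05 was found for 2 (25.1% of all), and DESeq2 called 1 (10.6% of all). Their median log2 fold change was -0.15, against -0.02 for all tested genes.

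Around IRF2BPL, CIPC, a regulator of the circadian clock 69.4 kb away, had 9.73 FPKM in NC and 8.12 in GRIK1 siRNA. Its log2 fold change was -0.36 (SE 0.19 and edgeR adjusted p = 0.271). The groups did not overlap for 3 of the 18 neighbours, against 38.5% of all tested genes. POMT2, a protein O-mannosyltransferase gene 246 kb away, was the higher one (19.4% of all), and ENSG00000288762 and TOMM20 were the lower ones (19% of all). The log2 fold change of POMT2 was 0.60 (SE 0.17 and edgeR adjusted p = 0.0925). ENSG00000288762, 75.8 kb away on the other side, had a log2 fold change of -0.86 (SE 0.43) at a level of 1.14 and 0.67 FPKM. Beyond it lay RPL22P2, a pseudogene with 0.67, and ANGEL1, with -0.18, while GSTZ1 next to POMT2 had -0.09.

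Around IRF2BP2, TOMM20, a subunit of the mitochondrial import receptor, went from 81.4 to 60.2 FPKM, a log2 fold change of -0.54 (SE 0.23 and edgeR adjusted p = 0.189). COA6, COA6-AS1, TARBP1, ENSG00000273416 and SNORA14B had log2 fold changes from -1.09 to 0.25. Around IRF2BP1, the transcription factor gene MYPOP, 3.88 kb away, had -0.37 (SE 0.27), and SYMPK, a gene of the 3' end processing machinery 20.4 kb away, had 0.29 (SE 0.20). DMWD, CCDC61, PGLYRP1 and ENSG00000269148 had -0.55 to 1.02. Without NC library 3, 6 of the 18 neighbours had an adjusted p under 0.05, 1 higher (POMT2) and 5 lower, where 16.9% of all tested genes were higher and 18.3% lower.

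**Figure D4:**
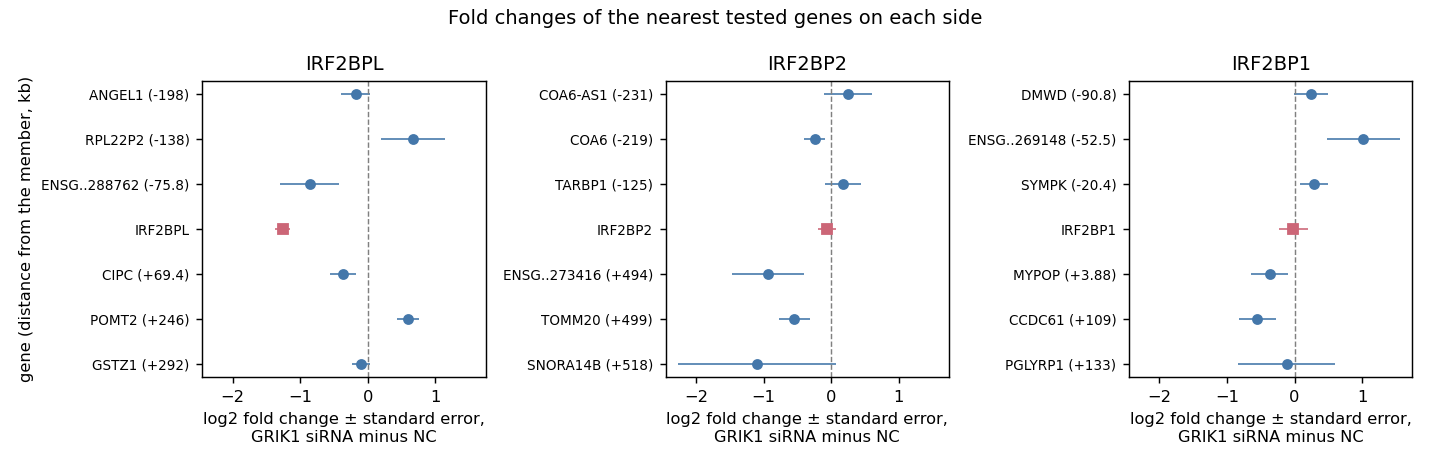
Log2 fold change (horizontal axis, bars are the standard error) of each paralog (red square) and of the 3 nearest tested genes on each side (blue), ordered along the chromosome with the distance in kb. IRF2BPL, at -1.26, lies lower than each of its 6 neighbours, which range from -0.86 to 0.67.

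The interferon regulatory factors are the transcription factors from which the family takes its name. Of 9, 5 were tested, and 0 had an adjusted p under 0.05 in edgeR. At an unadjusted p under 0.05 there was 1 (25.1% of all genes). DESeq2 and limma called 0 (10.6% of all genes in DESeq2, and 2.56% or 1.76% in limma with a pseudocount of 1 or 0.1). Above 0 were 4 of 5 log2 fold changes, against 48.6% of all tested genes, and their median was 0.14. IRF2 itself, a repressor of interferon responses, had 299, 334 and 371 counts in NC and 380, 409 and 413 in GRIK1 siRNA, a log2 fold change of 0.09 (SE 0.12). IRF7, which drives type I interferon genes, had counts of 69, 84 and 32 in NC and 50, 147 and 151 in GRIK1 siRNA, so the first GRIK1 siRNA library was within the NC range. Its log2 fold change was 0.71 (SE 0.49). IRF3, another activator of interferon genes, had -0.39 (SE 0.14 and edgeR adjusted p = 0.152). Without NC library 3 it had -0.51 (edgeR adjusted p = 3.31e-05), where the range over 14 alternatives was 3.31e-05 to 0.41. In the fit without that library, 35.2% of all tested genes had an adjusted p under 0.05, and 18.3% did so with a lower level. The factors below the filter had at most 31 counts in a library.

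Among 12 co-repressor partners, subunits of the NCOR and SIN3 deacetylase complexes and the ETO family, 10 were tested and 0 had an adjusted p under 0.05 in edgeR. An unadjusted p was under 0.05 for 3 (25.1% of all genes), DESeq2 called 1 (10.6% of all) and limma 0, and the median log2 fold change was 0.08. The deacetylase HDAC2 had the lowest value, -0.31 (SE 0.16). Its counts were 1886, 1975 and 2949 in NC and 1837, 2198 and 2092 in GRIK1 siRNA, so the groups overlapped and NC library 3 was the highest. When NC library 3 was left out, 3 partners were higher, among them the scaffold NCOR1 and the exchange factor TBL1XR1, and 1 was lower (HDAC1) at an adjusted p under 0.05, against 16.9% and 18.3% of all genes.

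A list of 13 factors was drawn up around those that family proteins are reported to bind or restrain. It took in relatives and partners, such as all NFAT and TEAD genes, so binding is not established for each. Of the 13, 12 were tested. None had an adjusted p under 0.05 in edgeR (0 of 12). An unadjusted p was under 0.05 for 3 (25.1% of all genes), DESeq2 called 1 (10.6% of all) and limma 0. Above 0 were 2 of 12 log2 fold changes, against 48.6% of all tested genes. The median log2 fold change was -0.18. On the TMM scale, the groups did not overlap for 4 of the 12 that were lower (19% of all tested genes). They did not for 0 that were higher (19.4% of all). NFATC4, of the calcium-regulated NFAT factors, had counts of 675, 645 and 293 in NC and 405, 398 and 368 in GRIK1 siRNA. NC library 3 was thus the lowest of all 6, and the log2 fold change of -0.66 (SE 0.33) had an edgeR adjusted p of 0.25. TEAD4, a DNA-binding partner of VGLL4, had the highest value, 0.27 (SE 0.19). Without NC library 3, NFATC4 had -0.98, and 5 of the 12 were lower at an adjusted p under 0.05 and 0 were higher, against 18.3% and 16.9% of all genes.

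Of 13 reported targets of the family, 9 passed the filter. In edgeR 0 of 9 had an adjusted p under 0.05, 5 had an unadjusted p under 0.05 (25.1% of all genes), DESeq2 called 4 (10.6% of all) and limma 0. The median log2 fold change was -0.17. GNRH1 encodes gonadotropin-releasing hormone, and its promoter is a known target of IRF2BPL in the hypothalamus. The direction of that regulation was not examined here, and a link between the levels of GNRH1 and IRF2BPL was not tested. GNRH1 had counts of 87, 91 and 43 in NC and 231, 182 and 193 in GRIK1 siRNA, so all GRIK1 siRNA libraries were above all NC libraries. On the TMM scale, the groups did not overlap for 3 targets that were higher (19.4% of all tested genes). They also did not for 2 targets that were lower (19% of all).

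The level of GNRH1 was 3.61 FPKM in NC and 9.01 in GRIK1 siRNA, a log2 fold change of 1.27 (SE 0.31 and edgeR adjusted p = 0.072). The adjusted p ranged from 7.37e-05 to 0.256 over 14 alternatives, of which 3 passed. Without NC library 3, the library with the lowest count, the log2 fold change was 0.96. MYC had the lowest value of the list, -0.50 (SE 0.12 and edgeR adjusted p = 0.0641), with counts of 647, 621 and 622 in NC and 489, 480 and 543 in GRIK1 siRNA. When NC library 3 was left out, 3 targets were higher and 4 lower at an adjusted p under 0.05, where 35.2% of all tested genes passed (16.9% higher and 18.3% lower). IL2, IL4, PENK and WNT1 were below the filter, and WNT1 had 0 counts in all libraries, which allows up to 3 counts in each.

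**Figure D5:**
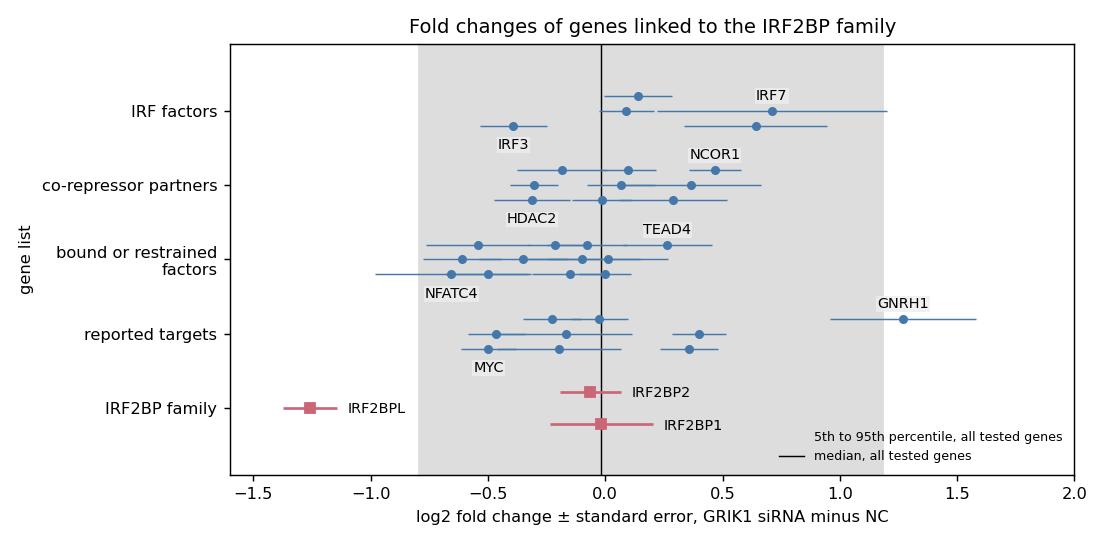
Log2 fold change (horizontal axis, bars are the standard error) of the 3 paralogs and of the tested genes of the 4 lists, apart from 1 co-repressor partner that is not plotted. The grey band spans the 5th to 95th percentile of all tested genes, -0.79 to 1.18, and the line is their median. IRF2BPL and GNRH1 lie outside the band.

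The genes whose level followed each paralog most closely over the 6 libraries were ranked by Pearson correlation of log2 CPM. These are the highest of 15870 values over 6 points, which share group and library, and are given as a description. The closest to IRF2BPL were ENSG00000286695, HMGA1, HNRNPF, BCKDK and SNAPC2, with r from 0.997 to 0.998. All 5 had negative log2 fold changes from -1.31 for HMGA1, an architectural chromatin protein, to -0.38 for the splicing regulator HNRNPF.

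The closest to IRF2BP2 were FURIN, RTL5, EPHB4, CAPN5 and FAM110A, with r from 0.991 to 0.993 and log2 fold changes from -0.26 to -0.05. The closest to IRF2BP1 were MEFV, HOXD9, RNF126, ENSG00000289074 and ENSG00000279097, with r from 0.975 to 0.997 and log2 fold changes from -0.15 to 0.10. No gene was among the closest 5 of more than 1 paralog. Between the paralogs themselves, r was 0.79 for IRF2BP1 with IRF2BP2, 0.23 for IRF2BPL with IRF2BP2 and 0.074 for IRF2BPL with IRF2BP1. The first of these includes NC library 3, the lowest library for both genes.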

How the data were processed

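For 6 libraries of U87-MG cells, raw counts and FPKM of 61806 genes were deposited by the authors in 1 table. Per the labels' processing notes, cutadapt 1.9.1, HISAT2, HTSeq and GRCh38 were used. The strand setting, read length and annotation are not given in the sources used here. The deposited FPKM equal the count divided by the exonic size and the library total (100% of values within 0.011). No entry without a gene name was found (0), and 0 value columns were left unassigned. A symbol was added from a table of gene names for 20380 genes.

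Counts were scaled by TMM and fitted without a block in edgeR 4.0.16 (R 4.3.3). Its quasi-likelihood p-values were adjusted by Benjamini-Hochberg over the 15870 genes whose FPKM averaged 0.5 or more. Intervals are 95% from that fit. Normalized CPM are scaled by TMM. Correlations used log2 CPM with a prior count of 2. Paralog ratios were compared with an exact permutation test in scipy 1.17.1. DESeq2 1.42.0, limma 3.58.1 on log2(FPKM + 1) or log2(FPKM + 0.1), other scaling and filters, a replicate block and each library left out were the alternatives, and a GC correction (lowess, span 0.3, over the 15529 tested genes with a GENCODE 29 transcript) was added after the data were seen. The tests were tried on simulated data. Totals of 11099909 to 14006968 counts set the precision, and limits from counts cover counting error only.

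The members and lists were chosen with earlier results of these data known, and the promoter motifs after the sequences were seen. Besides the 3 paralogs, GRIK1 and the neighbours, the named genes are the largest rise and fall of each list and the 5 closest correlates of each paralog. Others are named where the text says so or as members of a list described. Single-nucleus data of the study were not analysed here. Some genes of the lists are not reported here.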

Additional observations from a re-analysis of the deposited data

How the results depend on the processing

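IRF2BPL had a negative log2 fold change in all 14 alternatives. It was -1.09 in limma on log2(FPKM + 1) and -1.17 on log2(FPKM + 0.1), both on FPKM without TMM scaling, and -1.32 to -1.22 with 1 library left out. IRF2BP1 changed sign in limma (0.058 and 0.067), with a mean FPKM of at least 1 (0.0044) and with the GC correction (0.0017), and ranged from -0.22 to 0.11 with 1 library left out. IRF2BP2 did so in limma (0.027 and 0.030) and ranged from -0.16 to 0.0093. The IRF2BP1 to IRF2BP2 ratio ranged from -0.11 to 0.12. The cause of these changes was not tested.

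The number of genes with an adjusted p under 0.05, 490, became 1403 without a filter, 1684 with DESeq2, 280 in limma on log2(FPKM + 0.1), 934 with the GC correction, and 0 to 5591 with 1 library left out, where only leaving out NC library 3 gave any. With a log2 fold change over 1 as well, 224 became 664, 499 (DESeq2), 113 and 125 (limma, pseudocounts 1 and 0.1), and 0 to 491. Called genes of the lists, 0 in each, became 1 (co-repressor partners), 1 (bound or restrained factors), 4 (targets) and 1 (neighbours) with DESeq2, 1, 2 and 1 for partners, targets and neighbours with the GC correction, and 1 target without a filter. With 1 library left out they were 0 to 1 for IRF factors, 0 to 4 for partners, 0 to 5 for bound factors, 0 to 7 for targets and 0 to 6 for neighbours.

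With the replicate number as a block, 0 genes had an adjusted p under 0.05 and 3324 an unadjusted p under 0.05. The deviations of same-numbered libraries correlated at -0.07, 0.04 and -0.04, and 2 of 6 libraries correlated best with their own number. No pairing by number was thus seen, but with 3 libraries per group this check cannot exclude it. In that fit IRF2BPL had -1.26, IRF2BP1 -0.02 and IRF2BP2 -0.06, and the IRF2BP1 to IRF2BP2 ratio differed by 0.038 (exact sign-flip test, p = 0.75, where 3 pairs cannot give less than 0.25).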

Other observations

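The deposited table annotates 321 genes, the 3 paralogs among them, with transcription corepressor activity, an annotation looked at after the values were seen. Of these, 163 were tested, with a median log2 fold change of 0.02. IRF2BPL had the most negative value of the 163, and nothing is read from that rank, since its fall chose the family. At an adjusted p under 0.05 in edgeR, 3 others were higher, RERE with a log2 fold change of 1.86, HDAC4 with 0.87 and HIRA with 0.74. These 3 of 163 stand against 1.61% of all tested genes called higher. RERE and HDAC4 act with histone deacetylases, and HIRA is a histone chaperone. RERE went from 67.0 to 244 CPM. An adjusted p under 0.05 was kept in 7 of 14 alternatives for RERE and in 6 each for HDAC4 and HIRA. Their part in the level of IRF2BPL was not tested.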
